A study of Rattus norvegicus with 9 samples.

Results

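This is an account of 6 rat microRNA hairpins of low abundance, miR-31, miR-326, miR-338, miR-674, miR-872 and miR-547, across the wall of the left ventricle. They were taken by name, as every rat entry with the stem mir-31, mir-326, mir-338, mir-674, mir-872 or mir-547 in the annotated reads of all 9 libraries, both arms included. The names had been picked because earlier work on these data saw a lean to the epicardium or the endocardium in them, so that difference is described here and not tested. The rule found 256 sequences of 46358 annotated, in 15 entries of 2695, where an entry is a miRBase name with its class of read (mature, star or precursor). Together they held 3378 of 7631327 annotated reads, or 0.0443%.

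Small RNA was sequenced from the free wall of the left ventricle of 3 male Sprague-Dawley rats, 8 months old, with no treatment or altered allele named in the labels. Each of hearts 6, 7 and 8 gave 3 libraries, from the epicardium (outer layer), the mid-myocardium and the endocardium (inner layer), so n = 3 for each layer. The outer and inner layers were slices of about 1 mm taken in from each surface, so a layer is bulk tissue of mixed cell types. Levels are RPMM, the reads of a sequence per 1000000 annotated reads of its library. Annotated reads ran from 283991 to 1428025 per library. The shallowest was the mid-myocardium of heart 6, where 3 reads make 10.6 RPMM. The 5 cardiomyocyte miRNAs (miR-1, miR-133a, miR-208, miR-208b and miR-499) were detected in every layer, with a summed level of 54257 to 107352 RPMM in epicardium, 105836 to 142633 in mid-myocardium and 61767 to 103731 in endocardium.

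A microRNA hairpin is cut into a duplex of a 5′ arm (5p) and a 3′ arm (3p), and usually 1 strand, the guide, is kept in the Argonaute protein while the other, the star strand, is lost. Bases 2 to 8 of the kept strand, the seed, pair with target mRNAs, so an altered 5′ end changes the target set whereas an altered 3′ end leaves the seed in place. Reads that differ from the mature entry at an end are called isomiRs. Of the hairpins here, miR-31 is known for its action on dystrophin in muscle, miR-338 for oligodendrocyte differentiation, and miR-326 for helper T cell differentiation.

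The mature sequences of the arms that carried reads are shown first, since the 2 arms of a hairpin have unrelated seeds and in several of these hairpins both arms were read. They are from RefSeq, on the GRCr8 build of the rat genome, with the seed in capitals.
miR-31-5p (listed as miR-31a-5p): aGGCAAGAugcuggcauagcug
miR-31-3p (listed as miR-31a-3p): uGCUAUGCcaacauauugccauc
miR-326-3p: cCUCUGGGcccuuccuccagu
miR-338-3p: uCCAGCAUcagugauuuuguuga
miR-338-5p: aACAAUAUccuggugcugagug
miR-674-5p: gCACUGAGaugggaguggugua
miR-872-5p: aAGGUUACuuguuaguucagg
miR-872-3p: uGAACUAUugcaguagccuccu
miR-547-5p: uCACUUCAggauguaccaccca
miR-547-3p: aUUGGUACuucuuuaagugaga
No 2 of these arms shared a seed. For the 3′ arm of miR-674 the commonest read of these libraries is given in place of a mature entry, with the capitals again on bases 2 to 8.
miR-674 3′ arm, commonest read: cACAGCTCccatctcagaac

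The hairpins lie apart in the genome. Mir326 (chr1:163266165-163266259, plus strand) lies within Arrb1, the gene of beta-arrestin, which desensitises G protein-coupled receptors. Mir338 (chr10:105796342-105796407, minus strand) lies within Aatk, the gene of a kinase, and Mir3065, which overlaps it on the other strand, had 2 reads. Mir872 (chr5:114654823-114654903, plus strand) lies within Ift74, a gene of intraflagellar transport. Mir31 (chr5:108714849-108714954, minus strand) lies within a long non-coding RNA gene. The entry miR-3554, which overlaps it, had 0 reads, as had the entry miR-31b. Mir674 (chr3:124507170-124507246, plus strand) and Mir547 (chrX:151712081-151712161, minus strand) overlap no other gene of the annotation. Whether the hairpins within genes are exonic or intronic was not looked up here, since the gene table gives only the ends of each gene.

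Which arm of the hairpin was read differed from hairpin to hairpin, and in 3 of them it was not the arm listed as mature in the files. Of the 198 miR-547 reads 150 came from the 5′ arm, the star entry, and 48 from the 3′ arm. Of the 795 miR-674 reads 728 came from the 3′ arm, which the files hold under the precursor, and 67 from miR-674-5p. miR-872 was more balanced, with 602 reads of miR-872-3p, the star entry, and 421 of miR-872-5p. miR-338-3p had 799 reads and miR-338-5p 114. miR-31 was almost wholly miR-31-5p, with 98 of 100 reads, and the 2 reads of miR-31-3p were both in the endocardium of heart 8. miR-326 had 318 reads of miR-326-3p and none of miR-326-5p, but 31 reads in 3 sequences lay at the start of the hairpin, in front of the place of the 5p arm. The leading sequence of these, with 23 reads, began 1 base before the RefSeq hairpin.

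With the reads of the hearts summed, the share of the 3′ arm of miR-547 was 7.58% of the reads in epicardium (5 of 66 reads, 95% Wilson interval 3.28 to 16.5), 26.9% in mid-myocardium (18 of 67, 17.7 to 38.5) and 38.5% in endocardium (25 of 65, 27.6 to 50.6). From epicardium to endocardium it was 3.45%, 0% and 47.1% in heart 6, 9.09%, 32.3% and 19.4% in heart 7, and 13.3%, 26.7% and 64.7% in heart 8. Endocardium was above epicardium in each heart, but a rise at both steps was seen in heart 8 alone. In miR-872 it was 54.3% (48.7 to 59.8), 55.8% (50.4 to 61.0) and 65.0% (60.1 to 69.5) in the same order, and heart 7 went the other way, with 69.7% in epicardium and 62.6% in endocardium. The names were chosen on reads of the epicardium and endocardium, so the differences in these shares are descriptions only. Arm shares of other hairpins were not computed. The intervals, here and in what follows, cover counting error only and not the spread between hearts, and the reads carry no molecular identifiers.

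**Figure D1:**
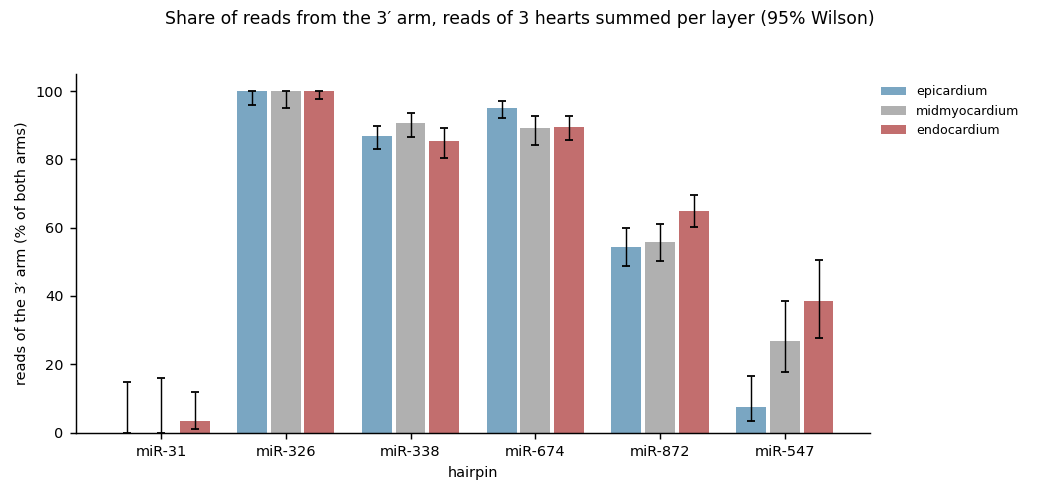
Reads of the 3′ arm as a percentage of the reads of both arms (y axis) for each hairpin (x axis), with the reads of 3 hearts summed per layer and 95% Wilson intervals. miR-547 goes from 7.58% in epicardium to 38.5% in endocardium, and miR-31 is nearly all 5′ arm while miR-326 is all 3′ arm.

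With both arms summed, 3 of the 6 hairpins had the higher mean in endocardium (miR-31, miR-326 and miR-872) and 3 in epicardium (miR-338, miR-674 and miR-547), miR-674 only with the epicardium of heart 7 included. Of the 15 entries, 3 had all endocardium libraries above all epicardium libraries (miR-326 mature, miR-674 mature and miR-547 mature) and 1 had the reverse (miR-338 mature). Over all 557 entries that reached 10 reads in 1 or more of these 6 libraries, 3.05% had the endocardium wholly above and 3.77% the epicardium wholly above. The members were chosen for this difference, so nothing is read from their count, and miR-547 mature, with at most 8 reads in a library, is not among the 557. In the other 11 entries the outer layers overlapped.

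miR-338-3p was the clearest epicardial case. It stood at 122, 134 and 125 RPMM in the epicardium of hearts 6, 7 and 8, at 88.0, 125 and 119 in mid-myocardium, and at 71.7, 69.3 and 93.4 in endocardium. In each of the 3 hearts the level fell from the epicardium through the mid-myocardium to the endocardium, and the outer layers did not overlap. The layer means were 127 ± 5.99, 111 ± 19.7 and 78.1 ± 13.3 RPMM (SD, n = 3), so the epicardium had 1.62 times the endocardium. In bulk tissue, fewer cells that make a miRNA and less of it per cell cannot be told apart.

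miR-338-5p, the other strand of that duplex, stood at 19.2, 23.4 and 16.1 RPMM in epicardium, 10.6, 11.9 and 12.3 in mid-myocardium, and 7.03, 14.01 and 17.1 in endocardium. The epicardium mean was 1.54 times that of the endocardium, but heart 8 was higher in endocardium and the layers overlapped. The reads of either arm that the files hold as precursor, most of them short of the mature end, differed less, with 23.6 ± 5.80 RPMM in epicardium, 18.7 ± 8.00 in mid-myocardium and 21.2 ± 3.27 in endocardium.

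miR-326-3p was the matching endocardial case. It was at 34.1, 37.6 and 32.2 RPMM in the epicardium of hearts 6, 7 and 8, at 45.8, 30.5 and 35.1 in mid-myocardium, and at 66.1, 47.6 and 51.3 in endocardium. All 3 endocardium libraries were above all 3 of the epicardium, with a ratio of means of 1.59, while mid-myocardium overlapped the epicardium. The reads at the start of the hairpin did not follow, at 3.01 ± 1.14, 7.03 ± 2.27 and 3.16 ± 1.95 RPMM (SD, n = 3) from epicardium to endocardium. miR-330, the other rat miRNA in the files with the seed of miR-326-3p, had 51 reads and stood at 6.08 ± 0.620, 6.71 ± 2.76 and 8.22 ± 2.29 RPMM.

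miR-31-5p was at 10.6, 14.3 and 1.07 RPMM in epicardium, 3.52, 9.29 and 11.4 in mid-myocardium, and 23.9, 10.5 and 31.6 in endocardium. Heart 7 went the other way from hearts 6 and 8, being lower in endocardium than in epicardium, and the ratio of means of 2.54 rests on few reads. The epicardium of heart 8 had 1 read (exact 95% Poisson interval 0.0272 to 5.98 RPMM) against 24 reads in its endocardium (20.2 to 47.0 RPMM).

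The 2 arms of miR-547 leaned to opposite layers. miR-547-5p was at 29.8, 25.95 and 13.95 RPMM in epicardium, 21.1, 27.9 and 20.9 in mid-myocardium, and 12.7, 17.5 and 7.89 in endocardium. It was lower in endocardium than in epicardium in each heart, although the layers overlapped, and the epicardium mean was 1.83 times that of the endocardium. miR-547-3p was at 1.06, 2.60 and 2.15 RPMM in epicardium, 0, 13.3 and 7.60 in mid-myocardium, and 11.2, 4.20 and 14.5 in endocardium. Its endocardium libraries were all above those of the epicardium, on 25 against 5 reads. The count of 0 in the mid-myocardium of heart 6 allows up to 10.6 RPMM by the limit of 3 reads, and up to 13.0 RPMM by the exact 95% Poisson interval. Summed, the arms gave 25.2 ± 7.94, 30.3 ± 10.1 and 22.7 ± 1.12 RPMM (SD, n = 3), and the outer layers overlapped.

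Mir547 belongs to a cluster of X-linked miRNA genes known for expression in testis. Of 14 other names listed for that cluster, miR-201, whose gene is the neighbour of Mir547, was the abundant one, with 652 mature reads at 76.7 ± 19.4 RPMM in epicardium, 104 ± 25.6 in mid-myocardium and 81.5 ± 8.36 in endocardium. Its star strand had 102 reads. miR-463, miR-743a, miR-743b, miR-871 and miR-881 had at most 2 reads in any class, and the other 8 names had no rat read.

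miR-674 was also read from both arms, and miR-674-5p was at 4.26, 7.79 and 4.29 RPMM in epicardium, 7.04, 7.97 and 13.3 in mid-myocardium, and 14.1, 9.80 and 9.21 in endocardium. The endocardium was wholly above the epicardium, with a ratio of means of 2.02, on 31 against 14 reads. The 3′ arm was at 35.1, 178 and 114 RPMM in epicardium, 45.8, 133 and 67.4 in mid-myocardium, and 59.0, 99.4 and 110.5 in endocardium. Its layers overlapped widely, and heart 6 rose from epicardium to endocardium while heart 7 fell. The higher epicardium mean, 109 ± 71.5 against 89.7 ± 27.1 RPMM (SD, n = 3), rests on heart 7, since without its epicardium the log2 difference of the precursor entry goes from -0.28 to 0.27, higher in endocardium.

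miR-872-3p was at 55.3, 80.5 and 53.7 RPMM in epicardium, 88.0, 85.0 and 90.2 in mid-myocardium, and 122, 71.4 and 85.5 in endocardium. Hearts 6 and 8 were higher in endocardium and heart 7 was lower, with a ratio of means of 1.47. miR-872-5p was at 61.7, 35.0 and 56.9 RPMM in epicardium, 56.3, 78.3 and 67.4 in mid-myocardium, and 38.0, 42.7 and 64.5 in endocardium. Its outer layers had nearly the same mean, 51.2 ± 14.2 and 48.4 ± 14.1 RPMM (SD, n = 3). In the plot of levels by layer miR-872-5p has its highest point in the mid-myocardium of heart 7.

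**Figure D2:**
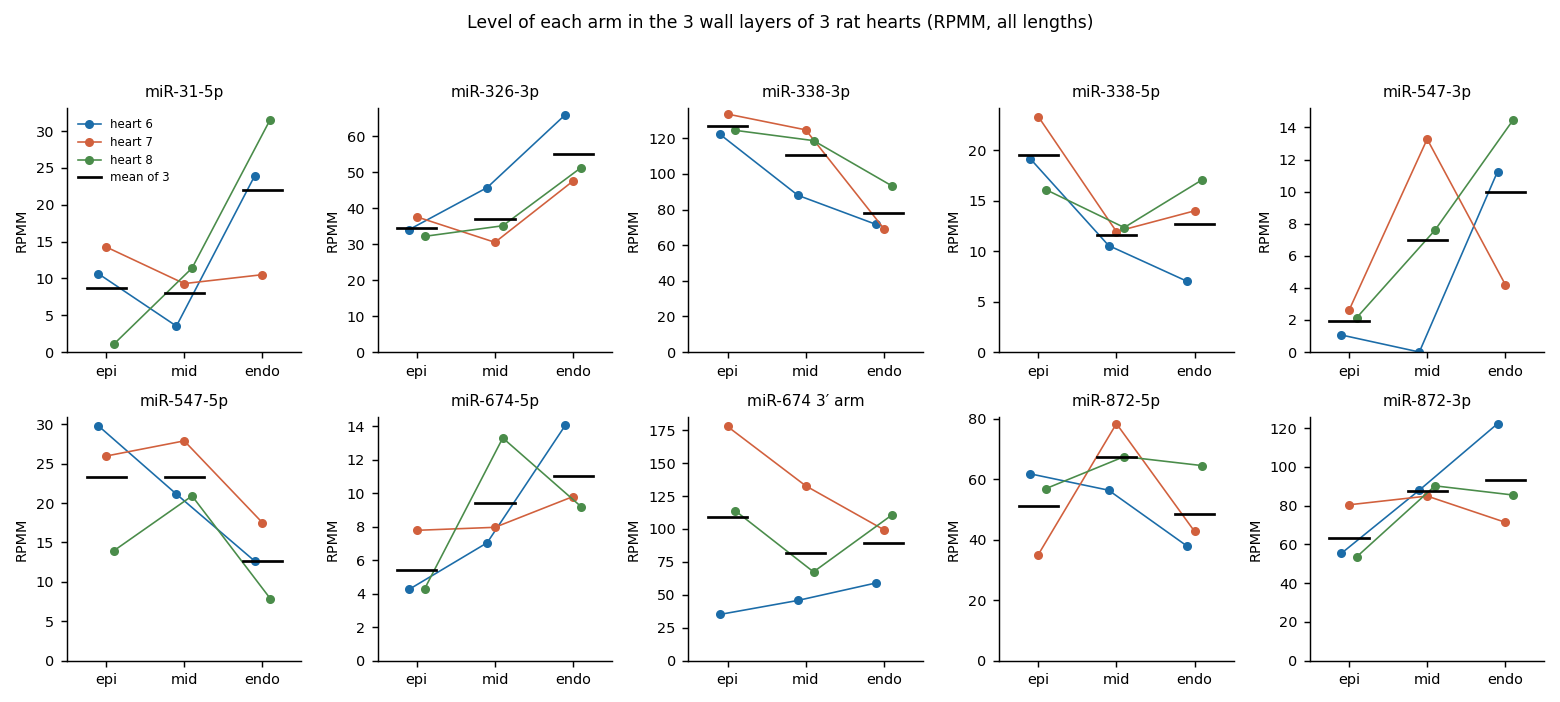
Level of each arm in RPMM (y axis, each panel on its own scale from 0) in epicardium, mid-myocardium and endocardium (x axis) for hearts 6, 7 and 8 (points joined by lines) with the mean of 3 (black bars). The points of miR-338-3p fall across the wall in each heart, though the step from epicardium to mid-myocardium is within counting error. miR-326-3p and miR-674-5p have their 3 endocardium points above the 3 of the epicardium, and for the 3′ arm of miR-674 the hearts lie further apart than the layers.

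The ends of the reads were described next, because levels change with which reads are counted. Of the 10 arms with a RefSeq mature entry and reads, the exact mature sequence was the commonest in 4 (miR-31-5p, miR-31-3p, miR-326-3p and miR-872-3p), and in miR-547-3p it tied with a read 1 nt shorter. miR-872-3p was the most uniform of the larger arms, with 500 of 602 reads exact (83.1%). miR-338-3p was the opposite, with 16 of 799 reads exact, because 97.4% of its reads stopped short of the listed 3′ end. Its 2 leading reads, of 364 and 213 reads, lack the last 2 and the last base and keep the seed, in capitals.
miR-338-3p, commonest read: tCCAGCATcagtgattttgtt
miR-338-3p, next read: tCCAGCATcagtgattttgttg
In miR-326-3p the exact sequence (129 reads) was followed by 2 reads with 1 base added at the 3′ end that the hairpin does not have, shown in capitals, of 52 and 42 reads.
miR-326-3p with A: cctctgggcccttcctccagtA
miR-326-3p with T: cctctgggcccttcctccagtT
Both additions together made up 33.0% of miR-326-3p in epicardium, 28.8% in mid-myocardium and 27.9% in endocardium. Shifted 5′ ends, which move the seed, were few in most arms (0% of miR-31-5p, 2.38% of miR-338-3p and 0.713% of miR-872-5p). In miR-674-5p, sequences that started 1 base earlier had 7 and 3 of its 67 reads. Shifted ends were common in miR-338-5p, where 32.5% of 114 reads started elsewhere. The leading one, of 18 reads, starts 2 bases earlier, and its bases 2 to 8 are in capitals.
miR-338-5p, earlier start: cCAACAATatcctggtgctg

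miR-872-5p showed how the count can turn with the read chosen. Its exact mature sequence had 138 reads and the same sequence with the next base of the hairpin added had 146, while bases 2 to 8 were shared.
miR-872-5p, exact: aAGGTTACttgttagttcagg
miR-872-5p, longer: aAGGTTACttgttagttcagga
The exact reads were 24.1%, 18.5% and 22.6% of the arm in the epicardium of hearts 6, 7 and 8, 31.2%, 35.6% and 38.0% in mid-myocardium, and 51.9%, 27.9% and 46.9% in endocardium. With the reads of the layer summed they were 22.5% (95% Wilson interval 16.3 to 30.1) in epicardium and 39.4% (31.6 to 47.8) in endocardium. The log2 difference between endocardium and epicardium was 0.80 for the exact reads and -0.08 for the whole mature entry. Exact reads are among the values on which the names were chosen, so these differences are descriptions of the choice and no support for it, and the shares over all other miRNAs were not computed. Exact reads of miR-547-5p were 27.9% of the arm in epicardium (18.2 to 40.2) and 7.50% in endocardium (2.58 to 19.9), on 17 and 3 reads. For miR-872-3p the exact share was 81.1%, 84.2% and 83.5% from epicardium to endocardium.

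**Figure D3:**
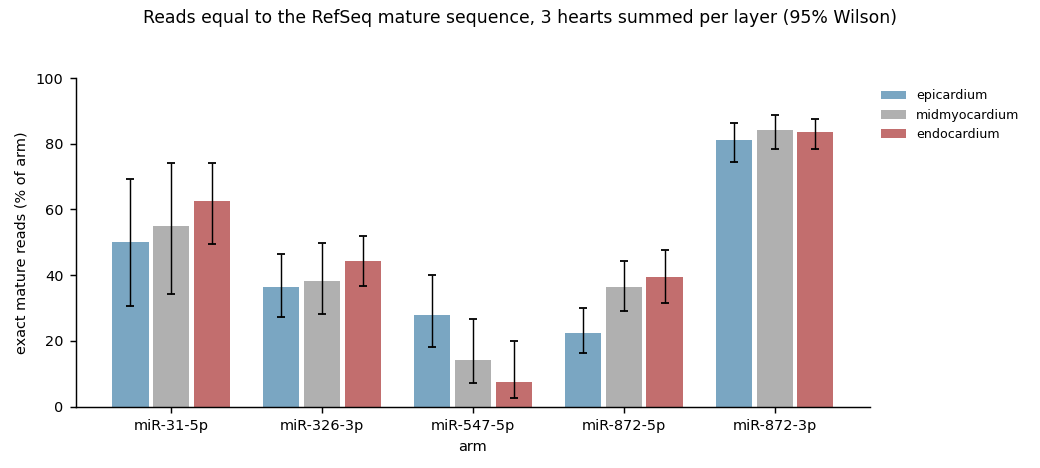
Reads identical to the RefSeq mature sequence as a percentage of all reads of the arm (y axis) for 5 arms (x axis), with the reads of 3 hearts summed per layer and 95% Wilson intervals. miR-872-5p goes from 22.5% in epicardium to 39.4% in endocardium and miR-547-5p from 27.9% to 7.50%, while miR-872-3p stays between 81.1% and 84.2%.

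The mid-myocardium had no part in the choice of these hairpins, so its level against the mean of the outer layers could be tested. The choice was on the difference between the outer layers and the test uses their mean. The same outer libraries therefore enter both. Of the 15 entries 10 reached 10 reads in 1 or more libraries and entered the test, and the other 5 (miR-31 star, miR-326 precursor, miR-547 mature, miR-547 precursor and miR-872 precursor) did not. None of the 10 passed in limma's test with Benjamini-Hochberg adjustment over 573 entries (percent called over all entries, 0.0%). By the same test 19 of the 573 had an unadjusted p under 0.05, edgeR called 0 with 19 and DESeq2 called 0 with 10. Among the members, 5 were higher in mid-myocardium and 5 lower, with a median difference of -0.01 on the log2(RPMM + 1) scale against 0.02 over all entries.

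The differences furthest from 0 were those of the miR-31 mature entry, at -0.56 ± 0.66 (SE) with a limma adjusted p of 0.914, and of the miR-872 mature entry, at 0.50 ± 0.30 with the same adjusted p. The miR-547 star entry differed by 0.47 ± 0.33, the miR-338 star entry by -0.41 ± 0.36 and the miR-326 mature entry by -0.28 ± 0.22, each within 2 SE of 0. The signs of 2 members changed without the shallow mid-myocardium of heart 6, where most of these arms rest on fewer than 20 reads: the precursor entry of miR-338 went from -0.32 to 0.025 and that of miR-674 from -0.24 to 0.10. The cardiomyocyte miRNAs listed above had their highest summed level in mid-myocardium, and the 2 fibroblast miRNAs (miR-199a and miR-214) stood at 2644 to 2832 RPMM there against 1512 to 2269.7 in epicardium and 1476 to 2729.6 in endocardium. Their part in these values was not tested. The mean of the mid-myocardium fell between those of the outer layers in 6 of the 15 entries, and in 27.7% of the 573. A wide gap between the outer layers leaves more room for this, so nothing is read from the count.

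**Figure D4:**
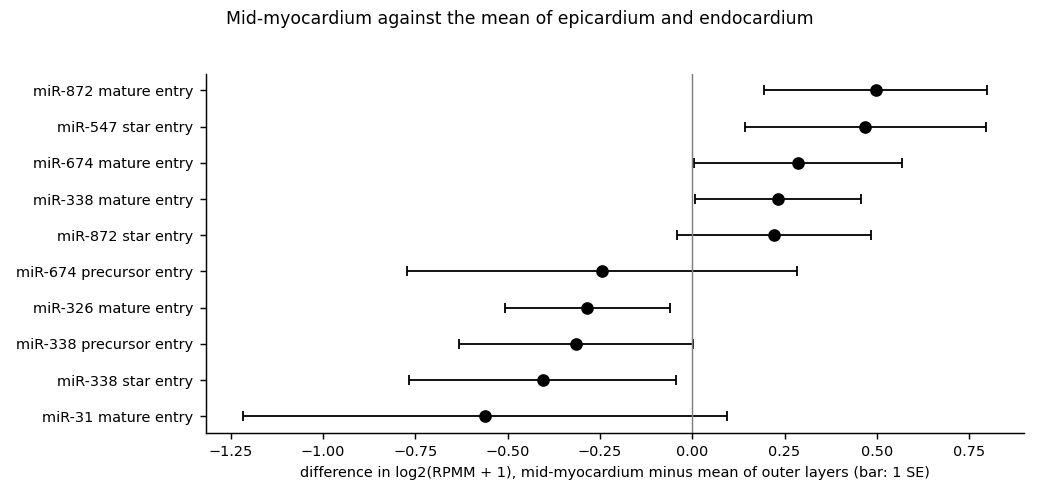
Difference in log2(RPMM + 1) between mid-myocardium and the mean of epicardium and endocardium (x axis) for the 10 entries tested (y axis), as points with bars of 1 SE from limma. They lie on both sides of 0, from -0.56 for the miR-31 mature entry to 0.50 for the miR-872 mature entry.

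The difference between animals was tested with the layer as a covariate, and the 3′ arm of miR-674, in its precursor entry, had the widest range of heart means among the 10 entries of the members that were tested. It averaged 46.6, 137 and 97.2 RPMM over the layers of hearts 6, 7 and 8, and heart 6 was the lowest of the 3 hearts in each layer. The range of the heart means was 1.53 on the log2 scale, with a limma F test p of 0.0100 and an adjusted p of 0.250, which did not pass. On the recovered reads it passed in edgeR's quasi-likelihood test (1.60, adjusted p = 0.0486) and in DESeq2 (1.58, adjusted p = 0.0111). limma called 0.0% of the 573 entries (10.6% had an unadjusted p under 0.05) and edgeR 2.79%. DESeq2 called 24. Its own filter left some of the 573, such as the mature entry of miR-674, with no adjusted p, so it adjusted over fewer entries.

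Within each layer the neural list (miR-9, miR-128 and miR-219, with miR-124 at 0 reads) ranked the hearts as the 3′ arm of miR-674 did. Heart 6 was lowest throughout, and heart 7 was highest in epicardium and mid-myocardium but heart 8 in endocardium. The summed level of the list was 266, 511 and 367 RPMM in the epicardium of hearts 6, 7 and 8. It was 285, 497 and 306 in mid-myocardium, and 264, 326 and 337 in endocardium. Its part in the heart difference of miR-674 was not tested.

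miR-674-5p, from the same hairpin, had heart means of 8.45, 8.52 and 8.93 RPMM and did not pass (range 0.09 for its mature entry, limma F test adjusted p = 0.983). The difference between the arms was not tested. Of the other members, the miR-547 star entry had the next largest range, 0.77 with a limma adjusted p of 0.565, and the median range over the 10 members was 0.37 against 0.51 over all 573 entries.

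**Figure D5:**
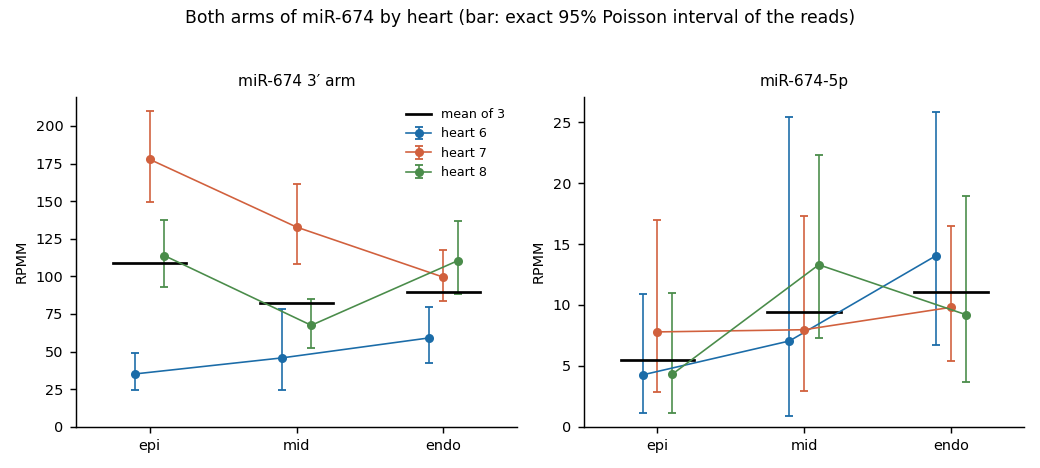
Level of the 3′ arm of miR-674 (left) and of miR-674-5p (right) in RPMM (y axes, from 0, on different scales) across the layers (x axis) for hearts 6, 7 and 8, with exact 95% Poisson intervals of the reads and the mean of 3 as black bars. Heart 6 is lowest in each layer for the 3′ arm (mean 46.6 RPMM against 137 and 97.2), and for miR-674-5p the intervals of the hearts overlap.

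For each hairpin the rat entry most alike over the 9 libraries was sought among 320 others with a mean of at least 10 RPMM, by Pearson's r of log2(RPMM + 1) with its most abundant entry. Each r is the highest of 320 over 9 libraries, a search that itself favours high values. The libraries also share hearts and differ in depth, so these values are descriptions. The highest was that of the 3′ arm of miR-674 with miR-125a, at r = 0.96. miR-125a was more than 100 times as abundant, averaging 5458, 15655 and 13017 RPMM in hearts 6, 7 and 8. In the test between hearts its mature entry did not pass in limma either (range 1.48, F test adjusted p = 0.223). It passed in edgeR's quasi-likelihood test (1.54, adjusted p = 0.0212) and in DESeq2 (1.51, adjusted p = 6.06e-05). The others were miR-664-2 star for miR-326-3p (0.88), miR-22 star for miR-872-3p (0.87), miR-140 for miR-547-5p (0.83), miR-345 precursor reads for miR-31-5p (0.80) and miR-322 star for miR-338-3p (0.70).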

How the data were processed

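Per the study's methods, reads of TruSeq small RNA libraries were trimmed and annotated to miRBase 18 in CLC Genomics Workbench 4.0. The authors deposited annotated sequences as RPM over the annotated reads of each library (RPMM), a grouped table (signal as RPM over 2 kinds of total), and raw read counts of 13317 unannotated sequences. No genome was used. Of the RPMM values 100% were whole reads within 0.02 of a read, so whole reads were recovered. 0 unannotated sequences shared a run of 14 nts with the 6 hairpins.

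The members and lists were chosen with earlier results of these data known. Reads were summed by species, name and class, and placed on arms by ungapped alignment to RefSeq hairpins (GRCr8). All 6 hairpins matched by symbol. limma 3.58.1 was run on log2(RPMM + 1) over all 573 entries that reached 10 reads in 1 or more libraries (Benjamini-Hochberg adjusted p, threshold 0.05); edgeR 4.0.16 and DESeq2 1.42.0 were run on recovered reads as alternatives, with other pseudocounts, filters, scalings, libraries left out and the heart as replicate block. The fit was checked on simulated data. The endocardium was set against the epicardium only for its share over all entries.

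Named miRNAs were the members, their seed relatives, the most alike entry of each and the cluster around Mir547. Libraries were paired by the heart named in the labels, each of which gave all 3 layers. Deviations from the layer mean correlated at a mean of 0.15 (-0.14 to 0.39) for libraries of the same heart, and at -0.07 for different hearts. Such deviations cancel within a layer, so the second mean largely follows from the first and is no separate evidence of pairing. Annotated reads per library ran from 283991 to 1428025.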

Additional observations from a re-analysis of the deposited data

How the results depend on the processing

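The comparison of mid-myocardium with the outer layers gave 0 calls under every alternative run, and so did that of endocardium with epicardium, the heart as replicate block included (0 and 0 calls, with the block in limma or edgeR); the block changed no call. Calls between hearts were 0 in limma but 16 in edgeR, 24 in DESeq2, 14 with a pseudocount of 10, 4 with no filter, 3 with 10 reads in each of 3 libraries and 3 with TMM library sizes; leaving out a library gave 0 to 7, the 7 without the mid-myocardium of heart 8. The cause was not tested. Among members the 3′ arm of miR-674 alone was called between hearts, by edgeR and DESeq2. Against the outer layers, the miR-547 star entry went from 0.47 to -0.14 (log2) with exact mature reads, and the miR-674 precursor entry from -0.24 to 0.0036 without the epicardium of heart 7 and to 0.10 without the mid-myocardium of heart 6, where the miR-338 precursor entry went to 0.025; leaving out a library gave -0.66 to 0.10 for the miR-674 entry and -0.60 to 0.025 for the miR-338 precursor entry (-0.32 with all). Hairpins with the higher endocardium mean numbered 3 to 4 over the alternatives, and arms led by the exact sequence 3 to 5 when a library was left out. Exact reads alone moved the endocardium to epicardium difference by more than the spread between hearts in 6 entries. With 1 to 25 reads an arm in the shallowest library where any were found, small differences could not be seen.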

Other observations

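Reads listed under other species with the same stems were few and are in no comparison. The files hold 1 read of a medaka miR-31 precursor, 1 read of a cow miR-326 and 2 reads of a mouse miR-674 precursor, none of them in an endocardium library.

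Marker miRNAs of other cell types were summed per library. The 5 epithelial or mesothelial miRNAs (miR-141, miR-200a, miR-200b, miR-200c and miR-429) stood at 34.1 to 93.4 RPMM in epicardium, 21.2 to 62.7 in mid-myocardium and 18.9 to 51.3 in endocardium. The sums of miR-143 and miR-145 (smooth muscle), miR-126 (endothelium), miR-144 and miR-451 (red cells) and miR-142, miR-150 and miR-223 (leukocytes) overlapped between epicardium and endocardium as well, as did that of the neural list. Their part in the lean of miR-338-3p or miR-326-3p was not tested.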
